A study of Mus musculus with 10 samples.

Results

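The 44 genes described here encode proteins that carry cells through G2 and mitosis. They were taken from a list of mitosis and G2/M genes chosen by their known function. All 44 were found among the 25579 genes of the 8 RNA-seq libraries and passed the filter of at least 1 TPM in at least 1 library, as did 13436 genes in all. TPM, the unit of the values, corrects read numbers for transcript length and brings every library to a common sum, so that levels can be compared between genes and between libraries. The libraries were made from polyadenylated RNA of cells sorted ex vivo from the bone marrow of C57BL/6 mice, 2 per genotype. The question behind the genotypes was what the R31Q substitution, a missense change in the DNA-binding paired domain of Pax5, does to early B lymphopoiesis. Pax5+/+ pro-B cells carried 2 intact alleles, Pax5+/- pro-B cells 1 intact allele, and Pax5 R31Q/- pro-B cells 1 R31Q allele opposite a null allele, so that the last group lacked the wild-type protein as well as the second allele. In the fourth group both alleles were floxed and the recombinase was expressed from Vav-Cre, which is active throughout the hematopoietic system and not only in B cells. Pax5 peaks came from cultured pro-B cells of 2 genotypes, Rag2-/-, which lack the recombinase of antigen receptor genes, and Pax5 R31Q/- again, with 1 library each. The study describes the Vav-Cre cells as Pax5-/- pro-B cells, while the labels call them progenitors. They are named here by their genotype, Vav-Cre Pax5 fl/fl. The labels do not say whether the libraries of a genotype came from separate mice, so p-values measure the spread between libraries, which may be technical.

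Mitosis is driven by cyclin-dependent kinase 1 bound to A- and B-type cyclins, and is started, paced and ended by further kinases and by the anaphase-promoting complex, a ubiquitin ligase that marks cyclins and securin for destruction. The genes for these proteins, for the kinetochore that links chromosomes to the spindle, and for the motors that build and cut the spindle are transcribed together late in the cell cycle and are silent in resting cells. This pattern is set mainly by the transcription factors Foxm1 and B-Myb and by the DREAM complex. Pro-B cells in the bone marrow divide in response to interleukin-7, and Pax5 is the transcription factor that commits lymphoid progenitors to the B lineage.

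The depth on genes, recovered from the steps between the TPM values, was 21625407 to 34488454 reads per library, with the lowest value in Vav-Cre Pax5 fl/fl library 1. The fewest reads of any of the 44 genes in any library was 117, for Spc25 in that library. Pax5 itself had 418 and 444 TPM in the Pax5+/+, 272 and 287 TPM in the Pax5+/-, 306 and 293 TPM in the Pax5 R31Q/- and 1242 and 1409 TPM in the Vav-Cre Pax5 fl/fl libraries. A value per gene does not show which exons were read, so the high Pax5 value does not check the deletion. How the Vav-Cre Pax5 fl/fl cells were gated is not given in the sources used here. Most early B-lineage genes were lower in them, though some were still at a high level, such as Dntt, the terminal transferase, at 3566 and 3072 TPM and Igll1, a surrogate light chain, at 1298 and 1080.2 TPM. On the list of 14 pro-B genes, which includes both, 10 were called lower and 1 higher relative to Pax5+/+ cells, where 19.7% of all genes tested were called lower and 16.2% higher. The median difference of the 14 was -1.33, and their summed level was 9733 and 8901 TPM against 16744 to 21540 TPM in the other 6 libraries.

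Levels of 42 of the 44 genes fell in Vav-Cre Pax5 fl/fl cells, and none of the 44 was called lower in the other genotypes. Their summed level was 6981 and 4654 TPM in the Pax5+/+, 6751 and 7496 TPM in the Pax5+/-, 6615 and 6011 TPM in the Pax5 R31Q/- and 1500.1 and 1552 TPM in the Vav-Cre Pax5 fl/fl libraries. Both Vav-Cre Pax5 fl/fl libraries lay below all 6 others for each of the 44 genes, which held for 28.2% of all genes tested. Against Pax5+/+ cells, limma on log2(TPM + 1) with Benjamini-Hochberg adjustment called 42 of the 44 genes lower and 0 higher, at an adjusted p under 0.05, where 19.7% of all genes tested were called lower and 16.2% higher. Over all genes these calls (2647 lower) moved with the libraries, to 4209 lower without Vav-Cre Pax5 fl/fl library 2 and 2034 without library 1, and median-ratio scaling turned their balance (2502 lower, 2631 higher). The median difference of the 44 genes was -2.01 on the log2(TPM + 1) scale, and the median over all genes tested was -0.11. By ratio of the mean TPM, the median gene kept 23.7% of its Pax5+/+ level. By this ratio 33 genes were over 3-fold lower. With a fold over 3 taken from the log2(TPM + 1) difference, over 5 TPM and the adjusted p all required, 31 of the 44 genes were lower, against 3.82% of all genes tested. In bulk RNA, fewer dividing cells and less of these mRNAs per cell cannot be told apart.

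**Figure D1:**
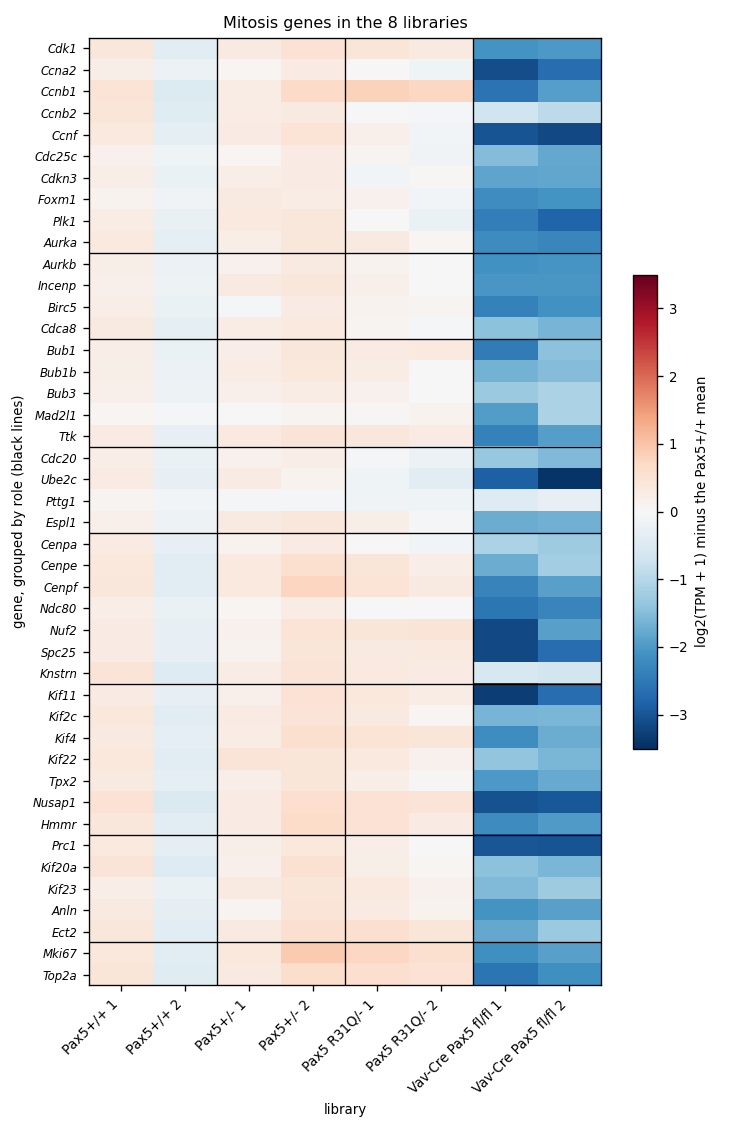
Level of each of the 44 mitosis genes (rows, grouped by role) in each of the 8 libraries (columns), as log2(TPM + 1) minus the mean of the 2 Pax5+/+ libraries. Blue is lower and red higher, and both Vav-Cre Pax5 fl/fl columns are below the other 6 in every row, with the faintest blue for Pttg1 and Knstrn.

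All 10 genes for entry into mitosis were called lower, with a median difference of -2.18. Cdk1, the kinase that drives mitosis, had 82.2 and 46.2 TPM in the Pax5+/+, 76.6 and 88.0 TPM in the Pax5+/-, 82.4 and 77.0 TPM in the Pax5 R31Q/- and 13.8 and 14.6 TPM in the Vav-Cre Pax5 fl/fl libraries. Its difference from Pax5+/+ was -2.05 ± 0.24 (SE; adjusted p = 5.87e-04). For Ccna2, which encodes cyclin A2 of S phase and early mitosis, the levels were 230.3 and 170.5 TPM in the Pax5+/+, 209 and 244 TPM in the Pax5+/-, 195 and 177 TPM in the Pax5 R31Q/- and 22.2 and 30.4 TPM in the Vav-Cre Pax5 fl/fl libraries. Ccna2 differed by -2.88 ± 0.19 (SE; adjusted p = 4.79e-05). Ccnb1, the gene of cyclin B1, which activates Cdk1 at the onset of mitosis, stood at 83.0 and 42.5 TPM in the Pax5+/+, 71.7 and 95.9 TPM in the Pax5+/-, 104 and 98.5 TPM in the Pax5 R31Q/- and 9.04 and 14.9 TPM in the Vav-Cre Pax5 fl/fl libraries. Here the difference was -2.26 ± 0.33 (SE; adjusted p = 0.00171). For each of the 3 genes, the Vav-Cre Pax5 fl/fl libraries were the lowest, and the only other pair that did not overlap Pax5+/+ was that of the Pax5 R31Q/- libraries for Ccnb1, which were higher. Ccnf, which encodes a ubiquitin ligase subunit active in G2, had 170.3 and 104 TPM in the Pax5+/+, 163 and 187 TPM in the Pax5+/-, 149.8 and 125 TPM in the Pax5 R31Q/- and 15.6 and 14.0 TPM in the Vav-Cre Pax5 fl/fl libraries. It fell furthest of the entry genes, with -3.09 ± 0.22 (SE; adjusted p = 6.56e-05). Plk1, a kinase needed for spindle assembly and mitotic exit, had 201 and 141 TPM in the Pax5+/+, 212 and 221 TPM in the Pax5+/-, 172 and 144 TPM in the Pax5 R31Q/- and 30.7 and 23.5 TPM in the Vav-Cre Pax5 fl/fl libraries. Plk1 differed by -2.61 ± 0.20 (SE; adjusted p = 7.89e-05). Foxm1, the transcription factor of many genes of this list, had 136 and 115 TPM in the Pax5+/+, 155 and 150.5 TPM in the Pax5+/-, 138 and 116 TPM in the Pax5 R31Q/- and 27.0 and 28.7 TPM in the Vav-Cre Pax5 fl/fl libraries. Foxm1 differed by -2.13 ± 0.13 (SE; adjusted p = 3.29e-05). These levels put Ccnf and Plk1 above 100 TPM in both Pax5+/+ libraries and under 31 TPM in both Vav-Cre Pax5 fl/fl libraries. The smallest change among the entry genes was that of Ccnb2, the gene of cyclin B2, which had 366 and 206 TPM in the Pax5+/+, 330.3 and 339.9 TPM in the Pax5+/-, 270.4 and 261 TPM in the Pax5 R31Q/- and 169 and 146 TPM in the Vav-Cre Pax5 fl/fl libraries. This difference of -0.80 ± 0.24 (SE; adjusted p = 0.0346) lost its call in 7 of the 13 alternative settings, and was -0.39 without Pax5+/+ library 1. The annotation holds 1 pseudogene named after each of Ccnb2, Kif4 and Kif22, with which these genes may share reads. The remaining 3 entry genes, Cdc25c, Cdkn3 and Aurka, differed by -1.66, -1.83 and -2.23.

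The chromosomal passenger complex, made of the kinase Aurora B with Incenp, survivin (Birc5) and borealin (Cdca8), corrects faulty attachments of chromosomes to the spindle, and all 4 of its genes were called lower. Aurkb had 252 and 191 TPM in the Pax5+/+, 244 and 272 TPM in the Pax5+/-, 241 and 217 TPM in the Pax5 R31Q/- and 49.97 and 51.7 TPM in the Vav-Cre Pax5 fl/fl libraries. The kinase gene differed by -2.09 ± 0.15 (SE; adjusted p = 6.12e-05). Birc5, Incenp and Cdca8 differed by -2.24, -2.04 and -1.53. The spindle checkpoint holds back anaphase until every chromosome is attached, and its 5 genes were also called lower, with a median difference of -1.59. Bub1, a checkpoint kinase at the kinetochore, had 38.4 and 27.9 TPM in the Pax5+/+, 38.6 and 43.8 TPM in the Pax5+/-, 39.9 and 41.5 TPM in the Pax5 R31Q/- and 5.24 and 11.6 TPM in the Vav-Cre Pax5 fl/fl libraries. Bub1 differed by -1.93 ± 0.31 (SE; adjusted p = 0.00258). Vav-Cre Pax5 fl/fl library 2 had more than library 1 here, with both below all other libraries. Ttk, the kinase also known as Mps1, changed most in this group with -2.15, and Bub3, a partner of Bub1, least with -1.19. Between them lay Bub1b with -1.59 and Mad2l1, which encodes the anaphase inhibitor Mad2, with -1.52.

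Anaphase onset was the role with the widest range. Ube2c, the ubiquitin-conjugating enzyme of the anaphase-promoting complex, had 645 and 436 TPM in the Pax5+/+, 651 and 578 TPM in the Pax5+/-, 476 and 406 TPM in the Pax5 R31Q/- and 72.4 and 48.0 TPM in the Vav-Cre Pax5 fl/fl libraries. Its difference of -3.15 ± 0.24 (SE; adjusted p = 7.96e-05) was the lowest of the 44 genes. Cdc20, the activator that the spindle checkpoint inhibits, had 319 and 234 TPM in the Pax5+/+, 306 and 322 TPM in the Pax5+/-, 259 and 236 TPM in the Pax5 R31Q/- and 108 and 93.8 TPM in the Vav-Cre Pax5 fl/fl libraries. It differed by -1.43 ± 0.16 (SE; adjusted p = 4.80e-04). Espl1, the gene of separase, which cuts the ring of cohesin that holds sister chromatids together, differed by -1.71. Pttg1, the gene of securin, the inhibitor of separase, had 31.5 and 27.5 TPM in the Pax5+/+, 28.8 and 28.8 TPM in the Pax5+/-, 26.9 and 26.7 TPM in the Pax5 R31Q/- and 21.5 and 24.2 TPM in the Vav-Cre Pax5 fl/fl libraries. Its libraries did not overlap between these 2 genotypes, but the difference of -0.36 ± 0.13 (SE; adjusted p = 0.0661) did not pass the threshold. Without Vav-Cre Pax5 fl/fl library 2 it did (-0.44, adjusted p = 0.0302 from limma). By mean TPM the conjugating enzyme Ube2c was at 11.1% and its substrate securin at 77.3% of the Pax5+/+ mean.

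Of the 7 genes for the centromere and kinetochore, 6 were called lower. Spc25 and Nuf2 encode subunits of the Ndc80 complex, which grips microtubule ends. Spc25 had 78.4 and 52.5 TPM in the Pax5+/+, 70.0 and 87.0 TPM in the Pax5+/-, 79.7 and 81.5 TPM in the Pax5 R31Q/- and 6.32 and 9.28 TPM in the Vav-Cre Pax5 fl/fl libraries. Spc25 differed by -2.91 ± 0.23 (SE; adjusted p = 9.87e-05). Nuf2 had 62.7 and 41.8 TPM in the Pax5+/+, 57.1 and 72.4 TPM in the Pax5+/-, 69.1 and 70.2 TPM in the Pax5 R31Q/- and 4.90 and 12.9 TPM in the Vav-Cre Pax5 fl/fl libraries. Nuf2 differed by -2.53 ± 0.38 (SE; adjusted p = 0.00176). The third subunit gene on the list, Ndc80 itself, differed by -2.43. Cenpf, which encodes a large kinetochore protein made in G2, had 39.2 and 22.1 TPM in the Pax5+/+, 37.9 and 50.4 TPM in the Pax5+/-, 41.7 and 36.6 TPM in the Pax5 R31Q/- and 4.97 and 7.18 TPM in the Vav-Cre Pax5 fl/fl libraries. Cenpf differed by -2.12 ± 0.29 (SE; adjusted p = 0.00114). Cenpe, the gene of a kinetochore motor, and Cenpa, that of the histone H3 variant of centromeres, differed by -1.48 and -1.18. Knstrn, the gene of a spindle and kinetochore protein, had 80.4 and 42.9 TPM in the Pax5+/+, 70.9 and 81.3 TPM in the Pax5+/-, 74.4 and 72.1 TPM in the Pax5 R31Q/- and 39.4 and 37.4 TPM in the Vav-Cre Pax5 fl/fl libraries. Here Pax5+/+ library 2 lay close to the Vav-Cre Pax5 fl/fl libraries, and the difference of -0.60 ± 0.26 (SE; adjusted p = 0.104) did not pass the threshold, but passed it without Pax5+/+ library 2 (-1.05, adjusted p = 0.0038 from limma).

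All 7 genes of spindle motors and spindle proteins were called lower. Kif11, the gene of Eg5, the motor that pushes the spindle poles apart, had 161 and 108 TPM in the Pax5+/+, 150.1 and 189 TPM in the Pax5+/-, 171 and 157 TPM in the Pax5 R31Q/- and 12.6 and 19.8 TPM in the Vav-Cre Pax5 fl/fl libraries. The motor gene differed by -2.98 ± 0.25 (SE; adjusted p = 1.25e-04). Nusap1, which encodes a protein that bundles spindle microtubules, had 168 and 82.8 TPM in the Pax5+/+, 144 and 177 TPM in the Pax5+/-, 169 and 161 TPM in the Pax5 R31Q/- and 13.5 and 14.3 TPM in the Vav-Cre Pax5 fl/fl libraries. Nusap1 differed by -3.00 ± 0.29 (SE; adjusted p = 2.42e-04). Both were below 20 TPM in each Vav-Cre Pax5 fl/fl library and above 82 TPM in each of the others. The other 5 ranged from -2.09 for Hmmr and -1.96 for Kif4 through -1.89 for Tpx2 and -1.62 for Kif2c to -1.49 for Kif22. The 5 genes of the central spindle and cytokinesis, the splitting of the cell body, were all called lower. Prc1, which encodes the cross-linker of the central spindle, had 126 and 78.2 TPM in the Pax5+/+, 114 and 129 TPM in the Pax5+/-, 117 and 99.96 TPM in the Pax5 R31Q/- and 11.6 and 11.4 TPM in the Vav-Cre Pax5 fl/fl libraries. Prc1 differed by -3.01 ± 0.21 (SE; adjusted p = 6.09e-05), and its 4 companions lay between -2.00 for Anln and -1.38 for Kif23. On the other strand Prc1 overlaps Rccd1, Nusap1 overlaps Oip5, Aurka overlaps Cstf1, Ccna2 overlaps Exosc9, Cdc20 overlaps Elovl1 and Kif20a overlaps Brd8 and Cdc23. Tex52 overlaps Foxm1 on the same strand. Since the strand setting of the counting is not given in the sources used here, reads of these genes, and of 6 others that overlap predicted or noncoding genes on the other strand, may be mixed.

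Mki67 and Top2a are the most used markers of dividing cells. Mki67, whose protein Ki-67 coats mitotic chromosomes, had 311 and 185 TPM in the Pax5+/+, 312 and 455 TPM in the Pax5+/-, 394 and 353 TPM in the Pax5 R31Q/- and 53.6 and 63.6 TPM in the Vav-Cre Pax5 fl/fl libraries. Mki67 differed by -2.02 ± 0.27 (SE; adjusted p = 0.00101). Top2a, the topoisomerase that untangles sister chromatids, had 537 and 301 TPM in the Pax5+/+, 502 and 613 TPM in the Pax5+/-, 608 and 571 TPM in the Pax5 R31Q/- and 67.4 and 89.2 TPM in the Vav-Cre Pax5 fl/fl libraries. Top2a differed by -2.36 ± 0.27 (SE; adjusted p = 4.82e-04). In Pax5+/+ cells the 44 genes ranged from 21.8 ± 3.11 TPM (SD, n = 2) for Cdc25c to 540.3 ± 148 TPM for Ube2c, and 23 of them had a mean above 100 TPM. In Vav-Cre Pax5 fl/fl cells this left 3, Ccnb2 with 158 ± 16.5 TPM, Cenpa with 105 ± 7.47 TPM and Cdc20 with 101 ± 10.3 TPM.

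**Figure D2:**
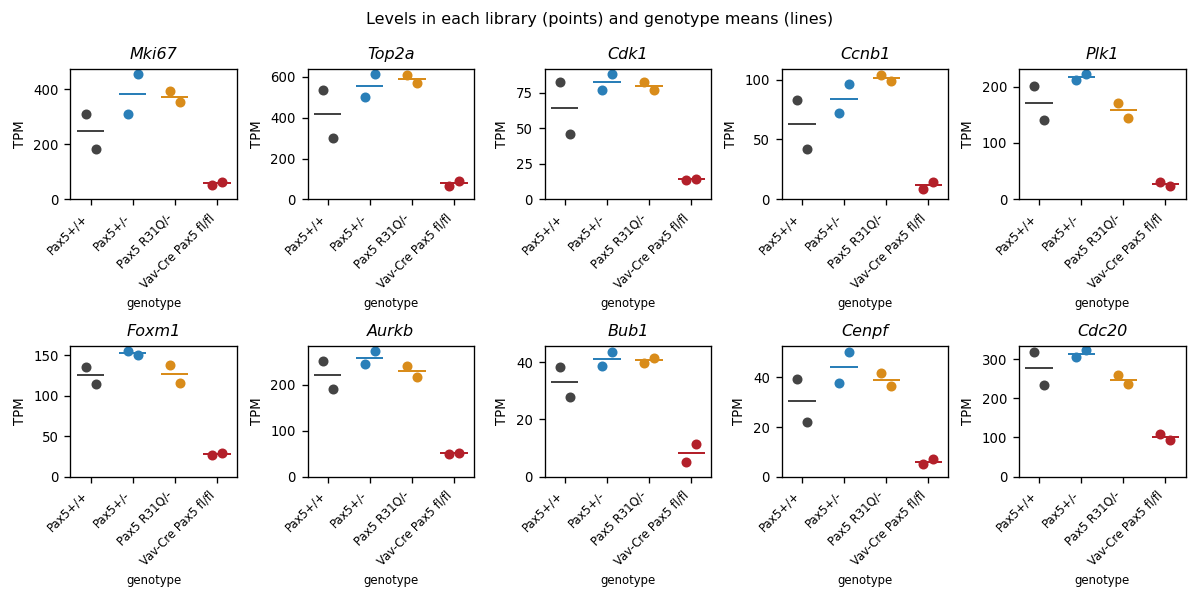
TPM (linear axes from 0) of 10 mitosis genes in each library (points) of the 4 genotypes, with the mean of each genotype as a line. In every panel the 2 Vav-Cre Pax5 fl/fl libraries are the lowest, and the Pax5+/+ points overlap those of Pax5+/- or Pax5 R31Q/- cells except for Mki67 and Bub1, where both Pax5+/+ libraries lie below the other 4.

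Neither loss of 1 allele nor the R31Q protein was accompanied by a called change in any of the 44 genes. In Pax5+/- against Pax5+/+ cells, 0 genes were called higher and 0 lower, with 2 at an unadjusted p under 0.05. The calls over all genes tested were 0% higher and 0.0223% lower (0 and 3 genes). They became 7 higher and 25 lower with limma-voom, and 7 and 22 without a trend. The median difference of the 44 genes was 0.32 against 0.02 for all genes tested. In Pax5 R31Q/- against Pax5+/+ cells, 0 were called higher and 0 lower, with 1 at an unadjusted p under 0.05. Here 1.62% of all genes tested were called higher and 2.55% lower (218 and 342 genes), which became 28 and 68 genes without Pax5 R31Q/- library 1, 31 and 55 without library 2, and 60 and 117 without Pax5+/+ library 2. The medians were 0.14 for the 44 genes and 0.04 for all genes. In Pax5 R31Q/- against Pax5+/- cells, again 0 were called in either direction, with 1 at an unadjusted p under 0.05, against 0.268% of all genes called higher and 0.35% lower (36 and 47 genes). These became 2 and 6 without Pax5+/- library 2, and 0 in both directions without any 1 of the other 3 libraries, where 573 to 738 genes had an unadjusted p under 0.05 in limma. The median of the 44 genes was -0.15. It was -0.24 and -0.059 without Pax5+/- library 1 and 2, and -0.22 and -0.059 without Pax5 R31Q/- library 1 and 2. limma-voom on the recovered reads also called 0 of the 44 genes in these 3 comparisons. The standard errors of single genes were 0.13 to 0.38, and a p that misses the threshold does not show that the levels were alike. The largest differences from Pax5+/+ were those of Mki67 in Pax5+/- cells, 0.65 ± 0.27 (SE; adjusted p = 0.787), and of Ccnb1 in Pax5 R31Q/- cells, 0.76 ± 0.33 (SE; adjusted p = 0.274).

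The 2 Pax5+/+ libraries stood apart in these genes. Library 1 was above library 2 for 44 of 44 genes, which held for 50.2% of all genes tested, and the median gap was 0.59 (0.11 to 1.01) on the log2(TPM + 1) scale. Library 2 was the lowest of the 6 libraries other than Vav-Cre Pax5 fl/fl for 42 of the 44 genes, and Pax5+/- library 2 was the highest for 35. How many of all genes tested did so was not counted. In these libraries the median of the 44 genes lay -0.29 and 0.41 from the Pax5+/+ mean, and that of all genes tested -0.001 and 0.03. The size of the small differences from Pax5+/+, and for Pax5 R31Q/- cells their sign, depended on which of the 2 Pax5+/+ libraries was used. Without Pax5+/+ library 1 the median was 0.61 in Pax5+/- and 0.47 in Pax5 R31Q/- cells. Cdk1, Knstrn and Nusap1, called higher in Pax5 R31Q/- cells in that fit alone, then differed by 0.77, 0.76 and 0.98. Without library 2 the medians were 0.03 and -0.10 and 0 genes were called. The difference in Vav-Cre Pax5 fl/fl cells exceeded this gap in size for all of the 44 genes but Ccnb2 and Knstrn, with a median of -1.67 without library 1 and -2.26 without library 2.

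**Figure D3:**
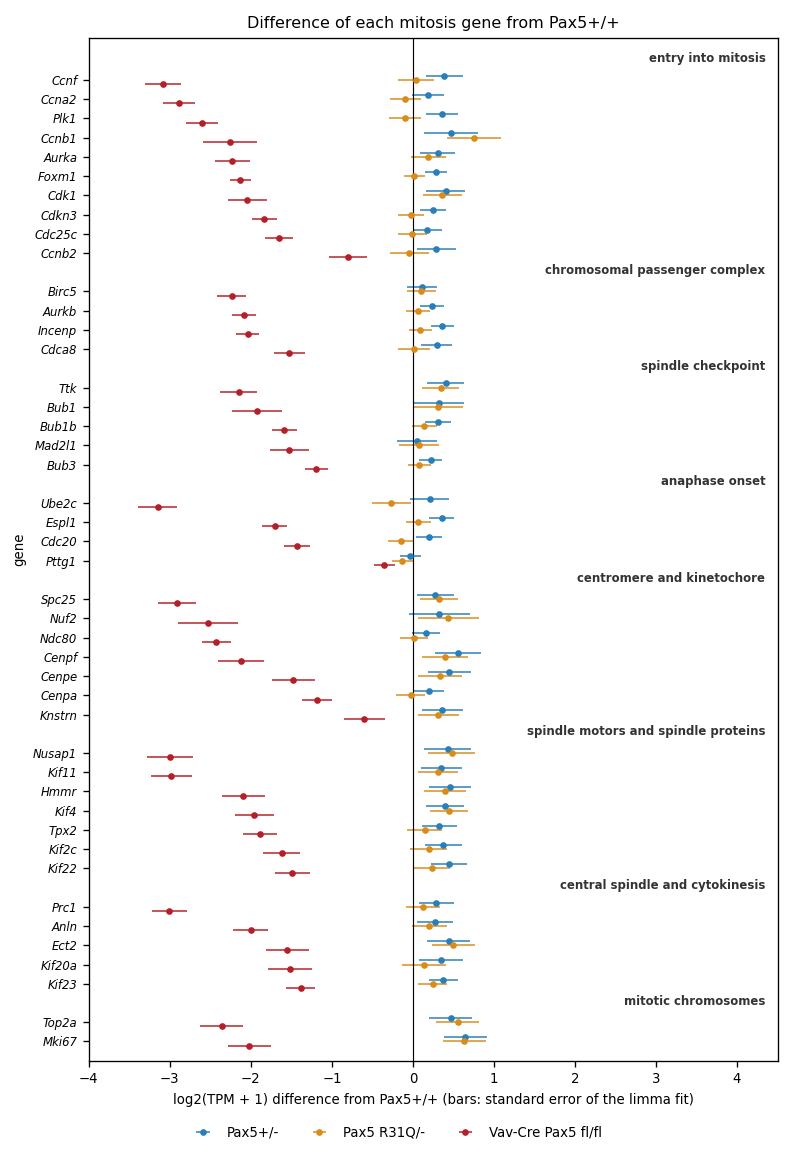
Difference of each mitosis gene from Pax5+/+ on the log2(TPM + 1) scale, with the standard error of the limma fit as bars, for Pax5+/- (blue), Pax5 R31Q/- (orange) and Vav-Cre Pax5 fl/fl (red) cells, which share the 2 Pax5+/+ libraries. The red points run from -3.15 for Ube2c to -0.36 for Pttg1, and the blue and orange points stay between -0.27 and 0.76.

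Vav-Cre Pax5 fl/fl cells were also compared directly with Pax5 R31Q/- cells. These groups differ in their Pax5 alleles, in Vav-Cre and in what the labels call the cells, so the comparison does not isolate the R31Q protein. With the Vav-Cre Pax5 fl/fl libraries shared with the comparison above, 43 of 44 genes were called lower and 0 higher, where 19.9% of all genes tested were called lower and 14.7% higher. Over all genes, 2677 were called lower, against 4437 without Vav-Cre Pax5 fl/fl library 2, 1796 without library 1, and 995 and 1139 without Pax5 R31Q/- library 1 and 2, and median-ratio scaling turned the balance (2473 lower, 2609 higher). The median was -2.18, and over all genes tested -0.13. The differences of Ccnb1, Nusap1 and Kif11 were -3.02 ± 0.33 (SE; adjusted p = 5.88e-04), -3.48 ± 0.29 (SE; adjusted p = 1.76e-04) and -3.29 ± 0.25 (SE; adjusted p = 1.21e-04). Pttg1 was again not called, with -0.22 ± 0.13 (SE; adjusted p = 0.207), and Knstrn, with -0.91 ± 0.26 (SE; adjusted p = 0.029), lost its call whenever 1 library of either genotype was left out. So did Ccnb2, with -0.75 ± 0.24 (SE; adjusted p = 0.0443), which lost it in 9 of the 13 alternative settings.

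Other genes of the cell cycle were read from 6 lists by function that exclude the 44. Their counts for Vav-Cre Pax5 fl/fl against Pax5+/+ cells stand beside 19.7% of all genes tested called lower and 16.2% higher. Of 17 condensin and cohesin genes, which compact and hold chromosomes, 14 were called lower and 1 higher in Vav-Cre Pax5 fl/fl against Pax5+/+ cells, with a median of -1.35. The condensin subunit Ncapg had 59.2 and 43.0 TPM in Pax5+/+ and 7.25 and 13.1 TPM in Vav-Cre Pax5 fl/fl cells, a difference of -2.26 ± 0.27 (SE; adjusted p = 5.86e-04). The exception was Wapl, which releases cohesin from chromosomes, with 10.3 and 6.81 TPM against 23.8 and 46.3 TPM, a difference of 1.86 ± 0.31 (SE; adjusted p = 0.00306). Of 24 other mitotic kinesins and spindle proteins, 17 were called lower and 0 higher, with a median of -1.31 and the largest difference for Kif18b, -3.06 ± 0.14 (SE; adjusted p = 1.13e-05). Among 27 other kinetochore and checkpoint genes, 21 were called lower and 0 higher, with a median of -1.13. Without Pax5+/+ library 1 the median was -0.92 and fewer were called, as over all genes tested. Of 18 genes for the kinases, phosphatases and brakes of entry, 13 were called lower and 0 higher, with a median of -0.83. The phosphatase gene Cdc25b, whose protein activates Cdk1, had 608 and 574 TPM in Pax5+/+, 463 and 374 TPM in Pax5 R31Q/- and 14.9 and 12.7 TPM in Vav-Cre Pax5 fl/fl cells, a difference from Pax5+/+ of -5.33 ± 0.14 (SE; adjusted p = 1.11e-06). The inhibitors of the G1 kinases Cdkn2c and Cdkn2d were lower as well, with -3.07 ± 0.20 (SE; adjusted p = 3.78e-05) and -2.62 ± 0.13 (SE; adjusted p = 1.60e-05).

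The anaphase-promoting complex is the ligase that Ube2c and Cdc20 serve. Of 17 further subunits and partners, 7 were called lower and 0 higher, with a median of -0.29 (-0.17 with quantile normalization and -0.19 with limma-voom). With Vav-Cre Pax5 fl/fl and Pax5+/+ cells alone in the fit 2 were called lower, against 1221 of the 13436 genes tested. Fbxo5, the gene of the inhibitor Emi1, had 169 and 119 TPM against 20.6 and 29.7 TPM, a difference of -2.47 ± 0.22 (SE; adjusted p = 1.61e-04), while the scaffold subunits Anapc1 and Anapc2 differed by -0.12 ± 0.18 (SE; adjusted p = 0.604) and 0.01 ± 0.10 (SE; adjusted p = 0.939). The 40 genes of DNA replication and G1/S gave 11 called lower and 4 higher, with a median of -0.28, where the shares of all genes tested were 19.7% and 16.2%. The median was -0.17 without Pax5+/+ library 1, -0.18 with limma-voom or median-ratio scaling and -0.15 with quantile normalization, and limma-voom and quantile normalization each called 7 higher and 10 lower. The lower ones included Rrm2, the small subunit of ribonucleotide reductase, with -2.34 ± 0.12 (SE; adjusted p = 1.52e-05), and E2f2, a transcription factor of S-phase genes, with -3.69 ± 0.11 (SE; adjusted p = 1.57e-06). The higher ones were Mcm2, Mcm3 and Mcm6, subunits of the replicative helicase, and Cdt1, which loads it. Mcm6 had 329 and 229.9 TPM in Pax5+/+ and 442 and 443 TPM in Vav-Cre Pax5 fl/fl cells, a difference of 0.68 ± 0.17 (SE; adjusted p = 0.0174), and Cdt1 one of 0.73 ± 0.12 (SE; adjusted p = 0.00333). The call of Mcm3 was lost without Vav-Cre Pax5 fl/fl library 1 or without Pax5+/+ library 2, and that of Mcm6 without either Vav-Cre Pax5 fl/fl library, and 8 genes were called higher and 6 lower without Pax5+/+ library 1. Against Pax5 R31Q/- cells, 27 of the 40 were called lower and 1 higher, where 19.9% of all genes tested were called lower and 14.7% higher. The median was -0.65, and -0.56 without Pax5 R31Q/- library 2, where fewer were called, as over all genes. In Pax5 R31Q/- against Pax5+/+ cells the 40 genes had 0 called higher, 1 lower (E2f2) and a median of 0.40. Over all genes tested 1.62% were called higher and 2.55% lower. An unadjusted p under 0.05 from limma was found for 25 of the 40, against 2521 of 13436 genes tested. Without Pax5+/+ library 1 some of the 40 were called higher, the call of E2f2 was lost and the median was 0.56. Without Pax5+/+ library 2 the median was 0.21. The call of E2f2 was also lost when Pax5 R31Q/- library 1 or library 2 was left out, with quantile normalization, without a trend and with the 2 genotypes alone.

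**Figure D4:**
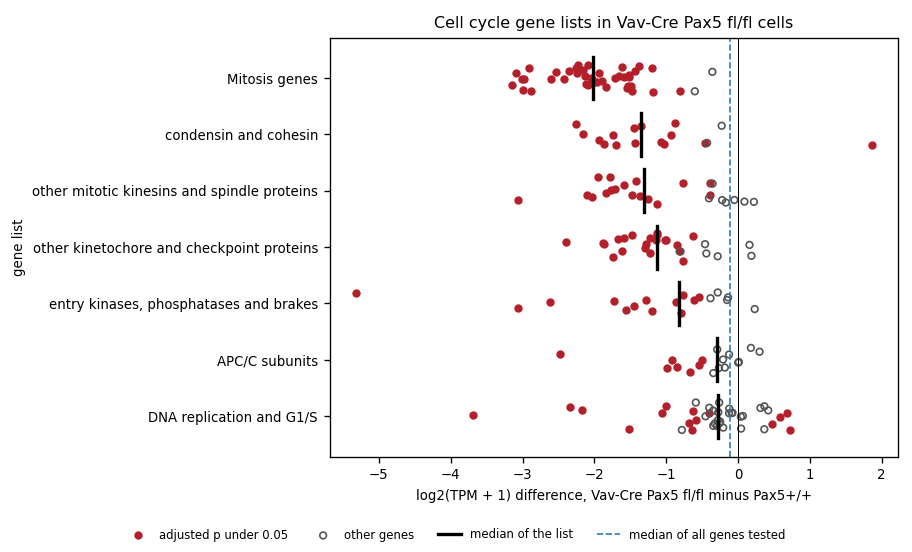
Difference of Vav-Cre Pax5 fl/fl from Pax5+/+ cells on the log2(TPM + 1) scale for the 44 mitosis genes and 6 further lists, with 1 point a gene (filled when the adjusted p from limma was under 0.05), the median of each list as a black bar and that of all genes tested (-0.11) as a dashed line. The medians run from -2.01 for the 44 genes to -0.28 for DNA replication and G1/S.

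Markers of other cell types moved with the same genotype, and their counts stand beside 16.2% of all genes tested called higher and 19.7% lower. Among 6 plasmacytoid dendritic genes, 5 were called higher in the Vav-Cre Pax5 fl/fl cells (against Pax5+/+), and their summed level was 697 and 1257 TPM against 222 to 353 TPM in the other 6 libraries. Among 7 T and NK genes tested, 3 were called higher and 1 lower, led by Lck at 273 and 271 TPM against 60.4 and 63.4 TPM in the Pax5+/+ libraries, while Cd3d, Cd3e and Cd3g stayed under 1 TPM in all libraries. The 10 granulocyte and macrophage genes, of which 1 was called higher, summed to 2174 TPM in Vav-Cre Pax5 fl/fl library 1 and 329 TPM in library 2, against 412 to 1550 TPM elsewhere. Of 5 erythroid genes tested, 3 were called lower, and the list summed to 81.6 and 23.8 TPM against 118 to 231 TPM. The globin genes Hba-a1, Hba-a2 and Hbb-bs were listed at under 0.14 TPM in all libraries, but such near-identical copies are poorly served by uniquely mapping reads. Of 6 pre-B and later B genes tested, 4 were called lower and 1 higher, and the list summed to 195 and 331 TPM against 129 to 306 TPM. The part of such cells in the levels of the mitosis genes was not tested.

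Pax5 binding at the same genes was read from 2 peak lists of cultured pro-B cells, 1 library each, called by MACS without scores in the files: one labelled Rag2-/- with 41983 peaks, which the study lists as its Pax5+/+ sample, and one of Pax5 R31Q/- cells with 18821 peaks, whose description writes Rag2 in place of Pax5. A gene was counted as bound where the midpoint of a peak lay within 1 kb of an annotated transcription start. This held for 34 of the 44 genes (77.3%) in the Rag2-/- list, against 67.4% of the genes tested, and for 37 (84.1%) in the Pax5 R31Q/- list, against 72.5%. Both lists had a peak at 33 genes, among them Cdk1, Ccnb1, Plk1, Foxm1, Ube2c, Mki67 and Top2a. The Pax5 R31Q/- list alone had a peak at Aurka, Aurkb, Bub1 and Nusap1. Ccna2, with a midpoint at 998 bases in the Rag2-/- list and at 1085 bases in the other, fell on either side of the limit with overlapping peaks. No peak in either list met the limit at Ccnb2, Cdc20, Pttg1, Knstrn, Kif2c and Kif22. The median difference of Vav-Cre Pax5 fl/fl from Pax5+/+ cells was -1.12 (-1.62 to -0.36) for these 6 genes and -2.04 (-3.15 to -1.18) for the 33 with both peaks. Over all genes tested with an annotated start, it was 0.03 for the 3225 with neither peak and -0.15 for the 8373 with both. With 1 library per list these are descriptions, with no test.

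**Figure D5:**
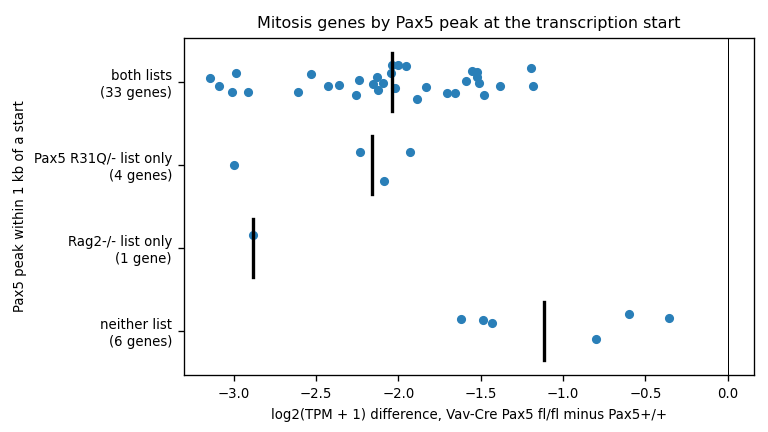
Difference of Vav-Cre Pax5 fl/fl from Pax5+/+ cells on the log2(TPM + 1) scale for each of the 44 mitosis genes (points), by whether a Pax5 peak midpoint lay within 1 kb of a start in both peak lists, in 1 of them or in neither, with the median as a bar. The 6 genes with neither peak lie between -1.62 and -0.36, and the 33 genes with both between -3.15 and -1.18.

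Promoters of late cell-cycle genes are known for the cell cycle genes homology region (CHR), to which the DREAM complex binds, and for the CCAAT box, the site of the factor NF-Y. Promoter windows of 250 bases before to 50 after the start (RefSeq, GRCm38.p6) were matched for 37 of the 44 genes (all but Aurkb, Ccna2, Cdc25c, Foxm1, Incenp, Kif20a and Tpx2). The CHR was searched as TTTGAA or TTCGAA and the CCAAT box as CCAAT, on both strands, and matches of different motifs were allowed to share bases. A CHR was found in 29 of the 37 genes (78.4%) against 16.4% of the genes tested with a window, and CCAAT in 28 (75.7%) against 43.0%. Both occurred in 26 genes (70.3%) against 6.90% of the genes tested, and in 18.2% of the DNA replication and G1/S genes. The stretches below are the 100 bases before the start, 5′ to 3′ on the coding strand, with both motifs in capitals on either strand. Cdk1, Ccnf, Kif11 and Top2a are shown as called genes with a CHR near the start. They differed by -2.05, -3.09, -2.98 and -2.36, beside a median of -2.01 for the 44 genes. Cdc20 is shown as a gene with both motifs but no Pax5 peak within 1 kb. Knstrn is shown as a gene that was not called and whose window held neither motif.
Cdk1: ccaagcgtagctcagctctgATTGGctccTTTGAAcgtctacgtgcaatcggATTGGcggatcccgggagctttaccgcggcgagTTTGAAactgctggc
Ccnf: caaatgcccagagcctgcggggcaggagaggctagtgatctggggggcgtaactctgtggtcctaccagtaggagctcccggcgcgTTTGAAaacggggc
Kif11: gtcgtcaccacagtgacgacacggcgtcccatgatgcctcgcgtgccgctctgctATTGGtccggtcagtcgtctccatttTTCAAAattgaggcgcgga
Top2a: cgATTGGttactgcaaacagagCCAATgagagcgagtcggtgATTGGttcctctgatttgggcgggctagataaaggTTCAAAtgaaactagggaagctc
Cdc20: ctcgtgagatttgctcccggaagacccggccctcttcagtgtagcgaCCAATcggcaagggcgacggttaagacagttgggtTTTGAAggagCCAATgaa
Knstrn: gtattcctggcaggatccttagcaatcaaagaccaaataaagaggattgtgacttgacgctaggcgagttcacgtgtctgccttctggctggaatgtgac
They lie at chr10:69352913-69353012, minus strand (Cdk1), chr17:24251410-24251509, minus strand (Ccnf), chr19:37376282-37376381, plus strand (Kif11), chr11:99024190-99024289, minus strand (Top2a), chr4:118437344-118437443, minus strand (Cdc20) and chr2:118813903-118814002, plus strand (Knstrn). In the stretch of Cdk1 a CHR follows each CCAAT box, and in that of Top2a 3 CCAAT boxes precede the CHR. The 6 of the 37 genes with neither motif were Birc5, Mad2l1, Nuf2, Nusap1 and both genes that were not called, Pttg1 and Knstrn. Their differences ranged from -3.00 for Nusap1 to -0.36 for Pttg1 with a median of -1.88, against -1.99 for the 26 with both. Over all genes tested the medians were -0.09 for 4866 genes with neither motif and -0.22 for 690 with both. The windows of Pttg1 and Kif2c were placed at a start 1482 and 3852 bases downstream of the most upstream annotated start, and the other starts were not searched. A match of letters does not show binding.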

How the data were processed

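RNA-seq was performed by the authors on 8 libraries (2 per genotype, grouped by their labels). Reads of 50 nucleotides were filtered against rDNA, aligned to GRCm38/mm10 with STAR 2.4.2, and uniquely mapping reads were counted on 25579 RefSeq genes with featureCounts; the authors deposited TPM. Pax5 peaks were called with MACS, per library, and deposited as positions only. From these files, log2(TPM + 1) was tested with limma 3.58.1 (R 4.3.3; eBayes with trend; all 8 libraries; genotype as the only term) on 13436 genes with at least 1 TPM in at least 1 library, at an adjusted p under 0.05. On this scale the fold of low genes is understated. The authors used DESeq2 on counts, which were not used here. Whole reads were recovered for all 18206 genes above 0 in at least 2 libraries (tolerance 0.001) and tested with limma-voom. Python 3.11.15, pandas 2.3.3 and matplotlib 3.10.9 served for the rest, and the fit was tested on simulated data.

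The 44 genes, the functional lists, the marker lists and the motifs were chosen with earlier results of these data known. Values per library are given for the 12 genes with the largest called difference in any comparison and for 10 fixed genes (Mki67, Top2a, Cdk1, Ccnb1, Plk1, Aurkb, Foxm1, Cdc20, Bub1 and Cenpf); other genes are examples of their role or list, chosen by the largest or smallest difference, and Ccnb2, Pttg1 and Knstrn are given as the exceptions. Wapl, Mcm2, Mcm3, Mcm6 and Cdt1 were named as the genes called against the direction of their list, and Anapc1, Anapc2, Cd3d, Cd3e and Cd3g were named after their values were seen. Alternatives were the pseudocount, the filter, the scaling, the libraries in the fit, the trend and the leaving out of each library. Of the 14 pro-B genes, 1 counted in the list is not reported here.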

Additional observations from a re-analysis of the deposited data

How the results depend on the processing

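Leaving out each library of the compared genotypes in turn gave medians of the 44 genes of 0.028 to 0.61 in Pax5+/-, -0.10 to 0.47 in Pax5 R31Q/- and -2.26 to -1.67 in Vav-Cre Pax5 fl/fl against Pax5+/+ cells, and 0 to 3 genes called higher in Pax5 R31Q/- cells, each extreme set by a Pax5+/+ library. With a pseudocount of 5 the median in Vav-Cre Pax5 fl/fl cells was -1.67. Over the 13 alternatives of each comparison, 41 to 43 genes were called lower against Pax5+/+ and 41 to 43 against Pax5 R31Q/- cells. Median-ratio scaling moved the median of all genes tested from -0.13 to -0.01 in the latter comparison and that of the 44 genes to -2.06. When a genotype was left with 1 library, that library was assumed to vary like the others. No paired analysis was possible because the labels carry no replicate numbers. With the 2 compared genotypes alone in the fit, 1221 of the 13436 genes tested were called lower in Vav-Cre Pax5 fl/fl against Pax5+/+ cells and 1108 higher. Of the lists, those called lower were 12 of 27 other kinetochore, 11 of 24 other spindle and 11 of 17 condensin and cohesin genes. Also called lower were 8 of 18 entry, 6 of 40 replication and 2 of 17 anaphase-promoting complex genes. Each genotype had 2 libraries, and the peak lists 1 each. The causes of these shifts were not tested.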
